A study of Mus musculus with 27 samples.

Results

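H3K4me1 sites of mouse hematopoietic stem cells (HSC) were compared between the fetus and the adult by interval overlap of the deposited peak lists. A site was a called peak. It was shared if at least 1 bp of it lay under a peak of the other age, and fetal-only or adult-only if not. The comparison covered 374759 of the 901169 sites in the 8 deposited lists, namely 231188 fetal and 143571 adult HSC sites. Of these, 103951 were fetal-only, 35745 were adult-only, and 127237 fetal and 107826 adult sites were shared. Fetal HSC were taken on embryonic day E16.5 and adult HSC at 8 weeks of age, from mice on the B6 background with no genetic change or treatment in the labels. Hematopoietic progenitor cells (HPC) of the same 2 ages were used as a second readout. The lists pooled 3 fetal and 4 adult HSC libraries, and for HPC 3 libraries per age each for H3K4me1 and H3K27ac. A further HPC set, of 2 fetal and 3 adult libraries, is labelled both ways, H3K27me3 by title and H3K27ac by the field for the mark, and appears here as the second K27 set. Cells were sorted, fixed and profiled by ChIPmentation, in which chromatin held by an antibody is tagged with the Tn5 transposase. The labels name neither the organ nor the surface markers used for sorting. With 1 pooled list per group there is no spread between replicates, so no test across samples was possible, and the 95% intervals given cover counting error only. Library depth is unknown.

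H3K4me1 is placed on nucleosomes of enhancers, active or poised, and on the flanks of active promoters, while the start of an active gene usually carries H3K4me3 in its place. H3K27ac is added where such elements are active. Fetal HSC divide and expand, whereas most adult HSC are quiescent. The fetal state is known to depend on the RNA-binding protein Lin28b, which blocks the maturation of let-7 microRNAs and so spares let-7 targets such as the mRNA of Hmga2.

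The cell label was checked against markers. All 10 HSC markers examined, among them Kit, Procr, Hlf and Meis1, had H3K4me1 sites at both ages in the gene body and 10 kb to either side, with a median of 24 fetal and 15 adult sites. The median was 16 fetal and 9 adult sites for 5 endothelial markers, 3 and 2 for 5 hepatocyte markers and 3 and 4 for 4 macrophage markers. Cd3e and Ncr1, markers of T and NK cells, and Alas2, of red cells, had 0 sites at both ages. Since H3K4me1 also marks poised elements, a site at a marker gene does not show that the gene is expressed, and the part of other cells in the results was not tested.

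The DNA under the starts of genes differed between the classes. As examples, 5 RefSeq start windows (GRCm38.p6, 250 bases before to 50 after the start, on the coding strand) are printed, chosen from more such windows. CpG dinucleotides are in capitals. Pde4d, a cAMP phosphodiesterase (chr13:108653927-108654226, plus strand), and Htr2b, a serotonin receptor (chr1:86111931-86112230, minus strand), were overlapped by a fetal-only site and no adult site. Hoxd13, a homeobox factor of limb and hindgut (chr2:74667975-74668274, plus strand), Egr2, a zinc finger factor (chr10:67535249-67535548, plus strand), and Ahsg, which encodes the plasma protein fetuin-A (chr16:22891765-22892064, plus strand), were overlapped by an adult-only site and no fetal site.
Pde4d, fetal-only: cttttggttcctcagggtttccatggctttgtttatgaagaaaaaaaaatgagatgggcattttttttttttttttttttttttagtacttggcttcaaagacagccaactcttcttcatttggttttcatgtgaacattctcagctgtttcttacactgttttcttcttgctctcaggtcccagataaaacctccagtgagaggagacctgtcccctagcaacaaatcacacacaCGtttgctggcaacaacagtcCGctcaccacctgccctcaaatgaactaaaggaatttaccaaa
Htr2b, fetal-only: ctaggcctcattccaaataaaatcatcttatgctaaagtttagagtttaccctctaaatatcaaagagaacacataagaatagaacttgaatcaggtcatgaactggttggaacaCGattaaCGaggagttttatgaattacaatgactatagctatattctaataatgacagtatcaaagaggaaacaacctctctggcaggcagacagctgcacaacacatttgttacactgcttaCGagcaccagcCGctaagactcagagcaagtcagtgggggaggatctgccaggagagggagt
Hoxd13, adult-only: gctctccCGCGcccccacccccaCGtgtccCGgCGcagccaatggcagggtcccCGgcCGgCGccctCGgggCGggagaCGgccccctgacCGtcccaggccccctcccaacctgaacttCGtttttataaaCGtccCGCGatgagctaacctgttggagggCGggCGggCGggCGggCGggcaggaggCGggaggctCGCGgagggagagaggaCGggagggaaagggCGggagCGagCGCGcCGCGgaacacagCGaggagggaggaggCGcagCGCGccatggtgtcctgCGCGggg
Egr2, adult-only: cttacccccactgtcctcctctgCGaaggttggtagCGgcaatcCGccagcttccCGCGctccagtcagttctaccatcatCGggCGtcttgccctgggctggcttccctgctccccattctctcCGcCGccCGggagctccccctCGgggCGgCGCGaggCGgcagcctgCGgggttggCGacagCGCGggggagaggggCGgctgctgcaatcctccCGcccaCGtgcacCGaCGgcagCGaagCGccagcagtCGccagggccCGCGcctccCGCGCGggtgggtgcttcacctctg
Ahsg, adult-only: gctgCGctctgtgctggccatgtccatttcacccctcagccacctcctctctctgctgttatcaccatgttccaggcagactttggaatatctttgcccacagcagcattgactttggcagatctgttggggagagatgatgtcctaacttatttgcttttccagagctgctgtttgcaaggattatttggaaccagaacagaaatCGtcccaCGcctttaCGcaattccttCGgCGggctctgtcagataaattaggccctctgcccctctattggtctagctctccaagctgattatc

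The Hoxd13 and Egr2 windows hold 37 and 32 CpG, the Pde4d and Htr2b windows 2 and 4, and the Ahsg window 6, as an adult-only window that is poor in CpG. The middle 50% of windows held 11 to 26 CpG where covered in adult HSC only and 3 to 16 where covered in fetal HSC only. Among the printed windows only that of Htr2b lay within the range of its class. The site over the Hoxd13 start (chr2:74668079-74669190) was 1112 bp wide with a fold of 4.99, where the fold is the authors' ratio of ChIP signal over background at a peak and belongs to that peak's own list. The site over the Egr2 start was 2017 bp wide with a fold of 3.72, that in the Ahsg window, which ended before the start itself, 1738 bp with a fold of 4.61, that over the Pde4d start 969 bp with a fold of 3.76, and that over the Htr2b start 882 bp with a fold of 3.03.

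Fetal-only sites were 45.0% of fetal sites (44.8 to 45.2) and covered 40.1 Mb, or 22.8% of the fetal H3K4me1 cover. Adult-only sites were 24.9% of adult sites (24.7 to 25.1) and covered 17.0 Mb, or 11% of the adult cover. With the fetal list cut to its strongest 143571 sites the fetal-only share was 32.3% and the adult-only share 35.8%, so the order turned. With both lists cut to their strongest 20000 sites the shares were 3.04% and 2.13%, in the first order. Most age-only sites were weak. Among strong sites, meaning the strongest 25% of each list by the authors' −log10 p, 12.2% of fetal sites (7076 of 57797) and 4.10% of adult sites (1471 of 35892) were age-only. From the strongest to the weakest 10% of a list the fetal-only share went from 3.69% to 68.9% and the adult-only share from 1.54% to 47.8%.

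**Figure D1:**
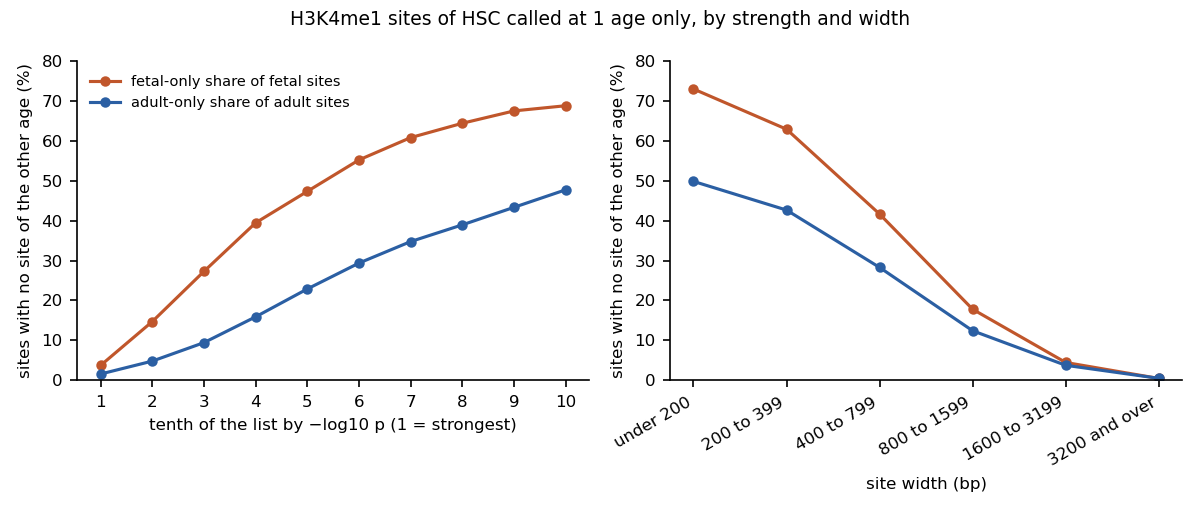
Share of HSC H3K4me1 sites called at 1 age only, by strength within the list (left, each point 10% of the list by −log10 p) and by site width in bp (right), for fetal (orange) and adult (blue) sites. The fetal-only share runs from 3.69% to 68.9% and the adult-only share from 1.54% to 47.8% from the strongest to the weakest sites, and both are under 1% at 3200 bp and over.

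Age-only sites were narrow. Fetal-only sites had a median width of 303 bp (302 to 304) against 665 bp for shared fetal sites, and adult-only sites 351 bp (348 to 355) against 835 bp for shared adult sites. The gap was also present among strong sites, at 715 against 1483 bp in the fetus and 1326 against 2001 bp in the adult. Of fetal sites under 200 bp, 73.1% were fetal-only, and of those of 3200 bp and over 0.430% were. In the adult these shares were 49.9% and 0.459%. A wide site has more bases with which to meet a site of the other age, so width and sharing are not independent under a 1 bp rule.

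Many age-only sites lay close to a site of the other age. The median distance to the nearest site of the other age was 1583 bp for fetal-only and 1100 bp for adult-only sites, and 39.6% and 48.0% of them lay within 1 kb of one. Sites more than 10 kb from any site of the other age made up 17.0% of fetal-only and 15.6% of adult-only sites. A shared site of the same list lay within 1 kb of 38.6% of fetal-only and 39.3% of adult-only sites. Shared regions were also cut differently at the 2 ages, since a shared adult site overlapped a mean of 1.36 fetal sites and at most 46, and a shared fetal site a mean of 1.16 adult sites and at most 15. At the edge of the rule, the 439 fetal sites that met an adult site by 10 bp or less had a median width of 302 bp and the 354 that missed one by under 10 bp 321.5 bp. For adult sites the counts were 283 and 231 and the widths 303 and 300 bp.

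The ages differed most plainly at gene starts. Only 2.52% of fetal-only sites (2.43 to 2.62) lay within 1 kb of a gene start, against 15.8% of shared fetal sites, while 14.6% of adult-only sites (14.2 to 15) did, against 17.8% of shared adult sites. Among strong sites the shares were 2.35% for fetal-only and 28.8% (26.5 to 31.1) for adult-only sites, beside 18% and 26.9% for shared sites. Fetal-only sites lay more inside genes, with 64.6% in a gene body against 53.0% of shared fetal sites, and adult-only sites with 50.1% against 52.4%. With the limit at 5 kb from the start the shares were 15% and 28.7%.

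Fetal HSC had a deeper gap in H3K4me1 at the start itself. Of 21263 RefSeq starts of 17492 coding genes, the first transcribed base lay in a site at 5.77% in fetal HSC and at 16.8% in adult HSC. HPC showed the same order, with 7.16% in the fetus and 18.5% in the adult. At 1 kb downstream the HSC shares were 38.2% and 47.6%, and at 5 kb upstream 11.7% and 11.1%. Of the 300-base start windows, 2770 (13.0%) were covered at both ages, 480 (2.26%) in fetal HSC only, 3741 (17.6%) in adult HSC only and 14272 (67.1%) at neither age. Merging sites or cutting the fetal list left more adult-only than fetal-only windows, with 4451 against 635 and 4273 against 344, and with 1 kb to either side of the start the counts were 1845 and 544.

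**Figure D2:**
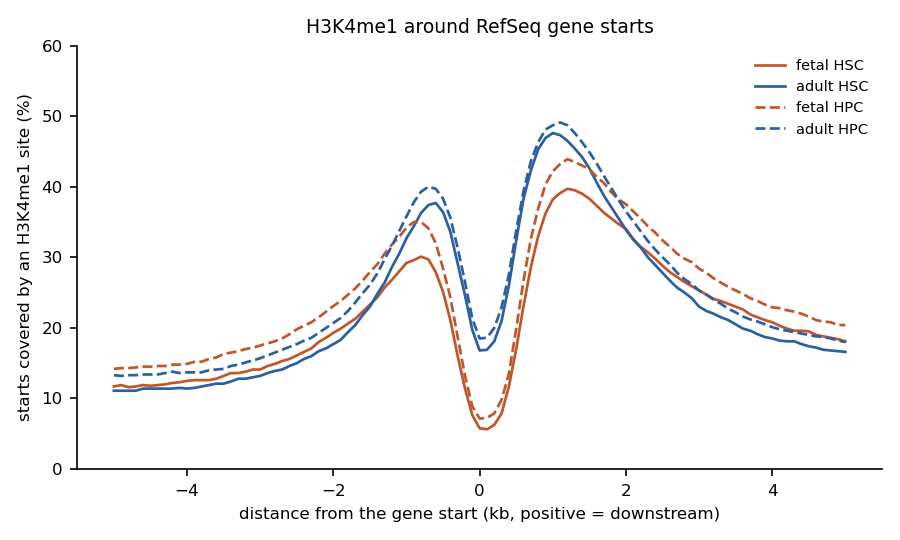
Share of 21263 RefSeq gene starts covered by an H3K4me1 site at each distance from the start, in kb with downstream positive, for fetal (orange) and adult (blue) HSC (solid lines) and HPC (dashed lines). At the start 5.77% of starts are covered in fetal HSC and 16.8% in adult HSC, and at 2 kb downstream 34.0% and 33.9%.

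The windows covered in adult HSC only were rich in CpG, like the Hoxd13 and Egr2 windows above. Their median was 19 CpG, against 8 in windows covered at both ages, 7.5 in windows covered in fetal HSC only and 13 over all windows. In the third of windows with most CpG (22 to 67 CpG, 6651 windows), the start lay in a site at 0.135% in fetal HSC and 9.98% in adult HSC, and at 0.210% and 11.6% in fetal and adult HPC. In windows with 7 to 21 CpG the HSC shares were 4.83% and 23.2%, the widest gap in percentage points of the 3 classes, and in those with 0 to 6 CpG they were 11.6% and 16.9%. The GC box GGGCGG, the site of SP1 factors, was found on either strand in 64.2% of adult-only windows, 37.9% of windows covered at both ages, 34.2% of fetal-only windows and 46.2% of all windows. It contains a CpG, as do the ETS motif CCGGAA, in 18.1% of adult-only and 18.7% of all windows, and the NRF1 motif GCGCNTGCG, in 8.10% and 8.61%. The GATA motif AGATAA was found in 5.59%, 12.5%, 12.9% and 9.65% of adult-only, both-age, fetal-only and all windows, and TATAAA in 5.96%, 13.3%, 16.9% and 12.6%. The letters were searched without regard to overlap with other motifs, and a match is not a bound site. Starts on chromosome 18 and starts of 4395 coding genes were not in the window table used here. Fragment length and depth can differ between the ages and cannot be told apart from age here.

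At Lin28b the start itself lay in a site in adult HSC and not in fetal HSC, though its start window was covered at both ages. The gene body begins at -16.114 kb relative to the start used here, so this start is not the outermost end of the gene. In adult HSC a site of 1378 bp (fold 3.67) ran across it, from -0.772 kb to 0.606 kb relative to this start. In fetal HSC the nearest sites ended at -0.161 kb and began again at 1.231 kb, so the start lay outside any site although the gene held more sites. The fetal site that ended at -0.161 kb overlapped the adult site, which was thus a shared site and not adult-only.

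Progenitors of the same age carried most of the strong age-only sites. Of strong fetal-only HSC sites, 91.5% (90.8 to 92.1) overlapped an H3K4me1 site of fetal HPC and 29.4% (28.4 to 30.5) one of adult HPC. Of strong adult-only HSC sites, 95.2% (94.0 to 96.2) overlapped one of adult HPC and 40.0% (37.5 to 42.5) one of fetal HPC. Strong shared sites overlapped HPC sites of either age at 92.6% to 99.1%. The HPC lists were not used to class the HSC sites. They differ in length, with 177310 fetal and 126502 adult H3K4me1 sites, and the part of list length was not tested. Over all sites, weak ones included, 57.1% of fetal-only sites overlapped fetal HPC and 18% adult HPC, and 60.4% of adult-only sites overlapped adult HPC and 29.0% fetal HPC.

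Acetylation in HPC differed between the classes. Of strong adult-only sites, 43.2% (40.7 to 45.8) overlapped H3K27ac of adult HPC and 8.09% (6.80 to 9.59) H3K27ac of fetal HPC. Of strong fetal-only sites, 11.4% (10.7 to 12.2) overlapped H3K27ac of fetal HPC and 4.23% (3.78 to 4.72) that of adult HPC. Strong shared fetal sites overlapped H3K27ac at 45.7% in fetal and 56.7% in adult HPC, and strong shared adult sites at 53.0% and 73.3%. Beyond 1 kb of a start the same-age shares were 11.2% for fetal-only and 42.1% for adult-only sites. The order was the same in wide sites. Among sites of at least 1600 and under 3200 bp, 16.4% of 841 fetal-only sites were acetylated in fetal HPC and 42.2% of 749 adult-only sites in adult HPC. The adult H3K27ac list is the longer, with 63108 against 50858 sites, and the part of list length was not tested. The second K27 set overlapped 1.36% of strong fetal-only sites in fetal HPC, and 5.71% of strong adult-only sites in fetal and 3.13% in adult HPC, and within 1 kb of a start 12.5% and 7.09% of strong adult-only and 10.2% and 6.02% of strong fetal-only sites.

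**Figure D3:**
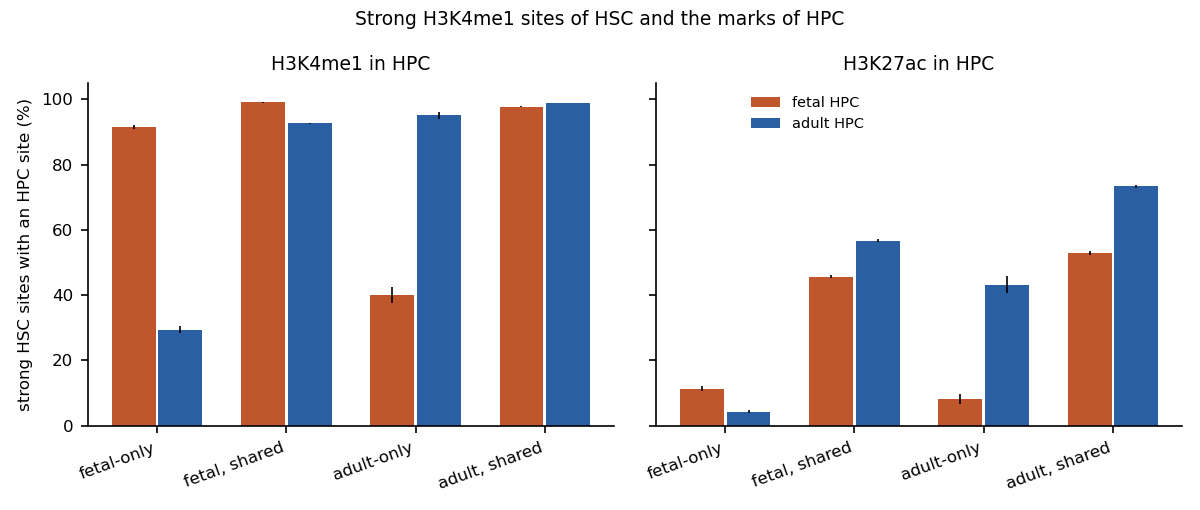
Share of strong HSC H3K4me1 sites that overlap an H3K4me1 site (left) or an H3K27ac site (right) of fetal (orange) and adult (blue) HPC, for age-only and shared sites of each age. Error bars are 95% Wilson intervals. Fetal-only sites reach 91.5% with fetal HPC H3K4me1 and 11.4% with fetal HPC H3K27ac, and adult-only sites 95.2% and 43.2% with those of adult HPC.

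Single genes held long stretches of fetal-only sites. Mecom, the zinc finger factor that HSC need for self-renewal (chr3:29951296-30509759), had the most strong fetal-only sites, 42 of its 119 strong fetal sites, with 0 strong adult-only sites. Its body held 334 fetal and 162 adult HSC sites, which covered 65.3% and 30.2% of it, and 210 fetal and 88 adult HPC sites. The strongest of its fetal-only sites by fold (5.94) lay 297.031 to 298.701 kb past the start. Foxp1, a forkhead factor of blood and lymphoid cells (chr6:98925342-99522746), followed with 22 strong fetal-only sites and 1 strong adult-only site, and with the highest fold of any fetal-only site, 11.6 over 1020 bp. That site also overlapped H3K4me1 of adult HPC and lay 465 bp from an adult HSC site.

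Calcrl, the receptor subunit for adrenomedullin (chr2:84330626-84425405), had 16 strong fetal-only sites among 27 strong fetal sites and 0 strong adult-only sites. Its body was covered by H3K4me1 sites at 62.7% in fetal and 12.5% in adult HSC. Hmga2, the chromatin protein of fetal HSC (chr10:120361268-120476469), had 13, with a body cover of 78.4% and 29.9%. Man1a, a Golgi mannosidase, also had 13, among 41 strong fetal sites. Babam2, a subunit of the BRCA1-A complex, had 12 of 38, and Ube2g1, a ubiquitin-conjugating enzyme, 11 of 17. Utrn, which encodes utrophin, had 11 of 54, Pde4d 10 of 73, and Csnk1g3, a casein kinase, 15 of 23. Each of these 6 genes had 0 strong adult-only sites and more H3K4me1 sites in its body in fetal than in adult HPC, from 29 against 13 at Ube2g1 to 243 against 117 at Pde4d. The fetal HPC list is the longer, and the count over all genes was not taken for HPC. Over all genes 11.9% of strong fetal sites were fetal-only. A ranking by count favours long genes, and Pde4d, at 1301.8 kb, lay near that share.

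Strong adult-only sites were fewer in total, 1471 against 7076 strong fetal-only sites, and the highest count at 1 gene was lower. The part of the totals in this was not tested. Over all genes 4.12% of strong adult sites were adult-only. The most at 1 gene were 6 of 18 strong adult sites, at Irs2, an adaptor of insulin and IGF signalling (chr8:10984681-11008929). Its body was covered at 16.1% in fetal and 50.7% in adult HSC. Fcgr3, the low-affinity Fc receptor for IgG found on myeloid cells (chr1:171051169-171065915), had 5 of 12. Their highest fold was 6.37, in a 618 bp site that was also marked in adult HPC and not in fetal HPC. Fcgr3 lies in a family of similar genes, so reads may be shared among them. Wnt7b, a Wnt ligand, Plekha6, Mdga1, Nrg2, Mad1l1, 1700001O22Rik and the MHC class I gene H2-Q4 had 4 each. Their strong adult sites numbered from 4 at H2-Q4 to 18 at Mad1l1. Over all coding genes, 3711 had a strong fetal-only site, 1195 a strong adult-only site and 228 both.

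Some genes had sites at 1 age alone. In the gene body and 10 kb around it, 87 of 21887 coding genes (0.397%) had 3 or more fetal and 0 adult HSC sites, and 111 (0.507%) had 3 or more adult and 0 fetal sites. Of the 87, 73 had an H3K4me1 site of fetal HPC and 31 one of adult HPC. Of the 111, 107 had one of adult HPC and 55 one of fetal HPC. The fetal genes with most sites were Klhl4 with 13, Dnah7b with 10, and Zfp518a, Htr2b and the lens crystallin gene Cryba1 with 9 each, those at Cryba1 all in its flanks. Cul4b, a cullin of ubiquitin ligases on the X chromosome, had 8, and Psma8 and Cntnap5a had 7 each. The Htr2b body held 8 sites in fetal HSC and 8 in fetal HPC, and 0 in the adult lists. At Klhl4, in contrast, fetal HPC had 1 site.

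The adult genes with most sites were Igsf21 with 9, Mroh5 and Prss57, a serine protease of neutrophil granules, with 8 each, and H2-Q4 and the nitric oxide synthase gene Nos1 with 7 each. Hrh3, a histamine receptor, and Tmem63c had 6 each, and Wnt7b 5. H2-Q4 (chr17:35379617-35384674) had a body cover of 59.9% in adult and 0% in fetal HSC, and lay in a run of 14 consecutive adult-only sites over 65.4 kb at H2-Q2, H2-Q4 and H2-Q6. Of these 14, 12 overlapped H3K4me1 of adult HPC and 0 that of fetal HPC. The H2-Q genes are near-identical copies, so how reads were placed among them is uncertain. Prss57 had 0 fetal HSC sites but 9 H3K4me1 sites of fetal HPC in the same span.

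Consecutive age-only sites no more than 25 kb apart, with no shared site of that list between them, formed longer runs in the fetus. Runs of 5 or more numbered 4554 of 46342 in fetal and 501 of 23463 in adult HSC, and the longest held 29 and 15 sites. The fetal list is the longer and has the larger age-only share, and their part in run length was not tested. Ldb2, a LIM domain binding protein, held a run of 21 fetal-only sites over 68.7 kb, of which 7 overlapped fetal HPC and 0 adult HPC. At Igf2bp3 a run of 19 had 18 sites in fetal HPC and 1 in adult HPC. On the adult side, Isg20, an interferon-induced exonuclease, held a run of 9 sites over 11.2 kb, all 9 marked in adult HPC and 1 in fetal HPC.

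The fetal stem cell programme, a list of 14 genes, had the highest fetal-only share of the 24 gene lists examined. Of 327 fetal sites nearest to its members, 192 (58.7%, 53.3 to 63.9) were fetal-only, against 44.1% of all fetal sites assigned to a coding gene. Of its strong sites, 31 of 94 (33.0%) were fetal-only, against 11.9% over all genes, and 30.5% without Hmga2. At 10 of its 14 members the fetal-only share was above 44.1%, as it was at 7172 of 16841 coding genes with a fetal site. These genes were known from earlier results of the same data to carry fetal sites, so the count describes them and lends no independent support.

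Lin28b (chr10:45376617-45486314) had 24 fetal and 10 adult HSC sites in its body. Its 16 fetal-only sites included 1 of 2689 bp with a fold of 6.18. That site lay 2.289 to 4.978 kb past the start used above, with 2 strong neighbours up to 8.481 kb. Fetal HPC had 16 H3K4me1 sites in the body and adult HPC 3. Igf2bp1, an RNA-binding protein, had 14 fetal and 2 adult HSC sites, none of them shared, Igf2bp2 48 and 21, and Igf2bp3 41 and 15. Body cover was 26.2% against 7.14% at Igf2bp3 and 43.1% against 19.2% at Igf2bp2. These 4 genes and Hmga2 had more sites in the fetal than in the adult list in both HSC and HPC, in HPC by 33 against 28 at Hmga2. Many genes did so in HSC, where 10002 of 21887 coding genes had more fetal and 3647 more adult sites in the body. Both fetal H3K4me1 lists are the longer, and the count over all genes was not taken for HPC.

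**Figure D4:**
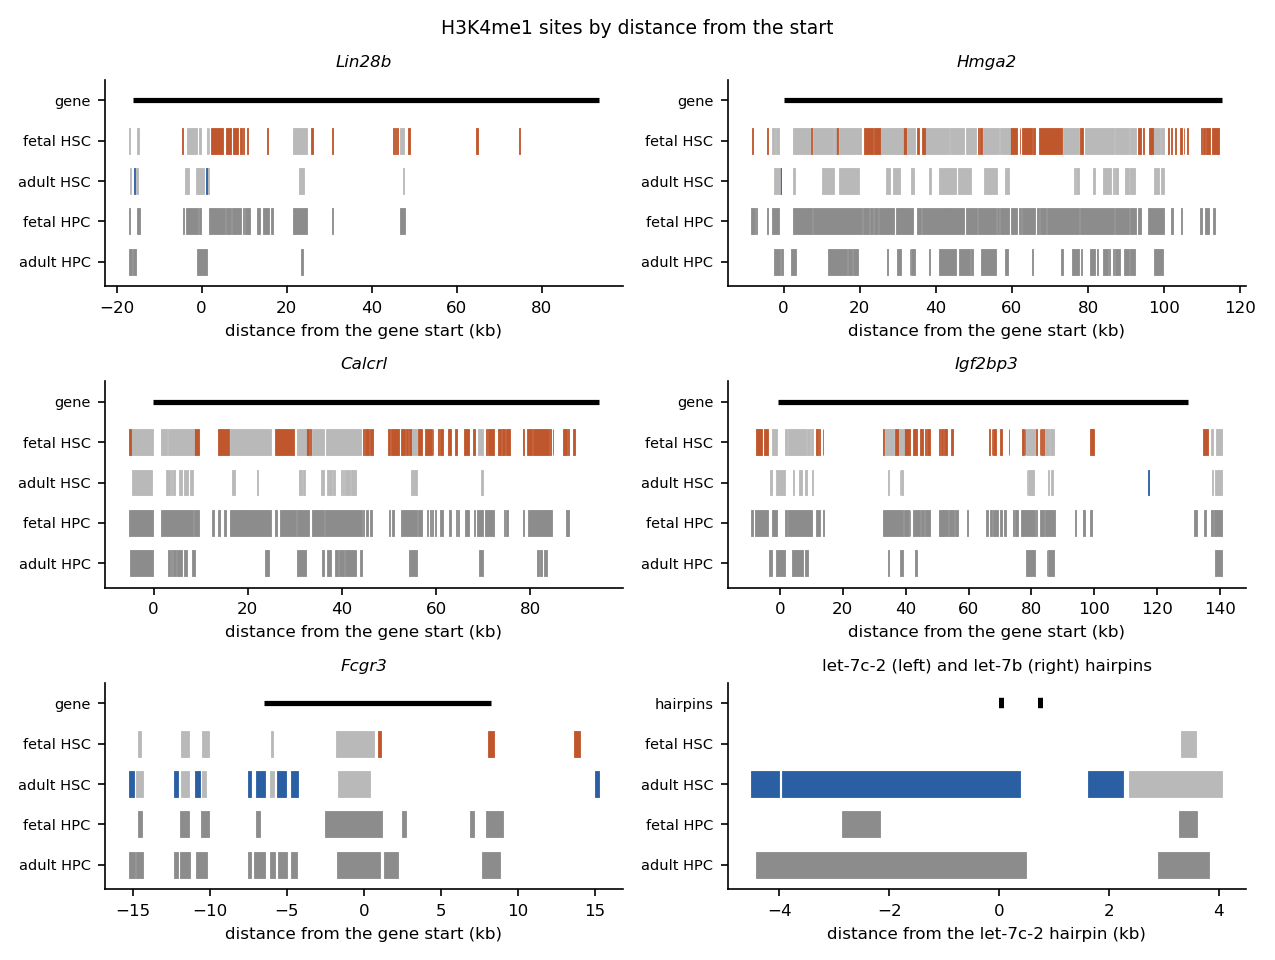
H3K4me1 sites by distance in kb from the gene start (from the hairpin for let-7c-2) in fetal and adult HSC and HPC. Colour marks sites called in HSC at 1 age only (orange fetal, blue adult), light grey the shared HSC sites and dark grey the HPC sites, and the black bar is the gene body or hairpin. Calcrl body cover is 62.7% in fetal and 12.5% in adult HSC, and at let-7c-2 a 4342 bp adult-only site covers the hairpin.

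Let-7 loci, the microRNA genes that Lin28b acts on, differed among themselves. They were looked at after their values were seen, and all 11 let-7 hairpins in the RefSeq table are counted here. Within 5 kb, 7 hairpins had more fetal than adult HSC sites and 4 more adult than fetal sites. Of 21887 coding genes, 10002 had more fetal and 3647 more adult HSC sites in the gene body, a different span. Neighbouring hairpins count the same sites, so the hairpins are not separate cases. The clearest adult case was the let-7c-2 and let-7b pair on chromosome 15, whose mature products share the seed of the family (capitals, bases 2 to 8).
let-7c-5p: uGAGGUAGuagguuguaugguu
let-7b-5p: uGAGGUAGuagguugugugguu
let-7g-5p: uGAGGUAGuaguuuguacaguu

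An adult-only site of 4342 bp (chr15:85702647-85706988, fold 5.36) covered the let-7c-2 hairpin (85706603 to 85706697) and ended 330 bp before the let-7b hairpin (85707319 to 85707403). In adult HPC a site of 4927 bp (fold 5.65) lay over the same place. Fetal HSC had 1 site within 5 kb, of 267 bp and fold 3.10, and fetal HPC had 2, of 697 bp (fold 2.15) and 317 bp (fold 2.46). At let-7g, on chromosome 9, the order was the opposite, with 5 fetal and 1 adult HSC sites and 6 fetal and 1 adult HPC sites. A wide site beside it, of 5818 bp in fetal and 4845 bp in adult HSC, was shared, and the 4 fetal-only sites were 279 to 489 bp wide. The cluster of let-7a-1, let-7f-1 and let-7d had 5 fetal and 2 adult HSC sites at each hairpin, and these were the same sites. The widest, of 8742 bp in fetal and 7010 bp in adult HSC, was shared. The 4 fetal-only sites there were 185 to 912 bp wide and not strong. Of 1005 hairpins, 45 had a strong fetal-only and 33 a strong adult-only HSC site within 5 kb. Mir763, inside Hmga2, had 4 strong fetal-only sites. On the adult side, the miR-23b, miR-27b and miR-24-1 cluster on chromosome 13 had 0 fetal HSC sites within 5 kb and 4, 3 and 3 adult ones. Of these, 1 adult-only site of 922 bp had a fold of 4.82. Another of the 4 at miR-23b, of 1502 bp (fold 4.49), was shared, with a fetal site that lay beyond 5 kb.

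Genes of HSC identity had smaller age-only shares than all coding genes, except among strong fetal sites. Of 1852 fetal sites at 30 genes, 37.6% were fetal-only, against 44.1% over all genes, and 30.9% without Mecom. Of strong fetal sites 86 of 622 (13.8%) were fetal-only, against 11.9%, with 42 of them at Mecom and 8.75% without it. Mllt3, a regulator of HSC self-renewal, had 9 strong fetal-only sites among 63 strong fetal sites. Kit, the stem cell factor receptor, had 8 among 42. Adult-only sites were 16.9% of the list's adult sites, against 24.9%, and 2 of 282 strong ones (0.709%, against 4.12%), 1 each at Runx1 and Prdm16. Cytokine receptors of stem cells had fetal-only shares of 46.7% of all and 17.6% of strong sites (59 of 336), 13.9% without Calcrl, and 0 strong adult-only sites among 149. Besides Calcrl and Kit, Igf1r, the IGF receptor, had 6 strong fetal-only sites among 53 strong fetal sites, near the 11.9% of all genes. The quiescence and niche retention list had 40.1% fetal-only and 12.5% adult-only sites. Of its 249 strong fetal sites 10.0% were fetal-only, with 4 each at Klf6, Tgfbr1 and Foxo1. It had 0 strong adult-only sites among 132.

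Interferon and antigen presentation genes had a fetal-only share of 23.0% (19 to 27.4) of 379 sites, against 44.1% over all genes, and 5.17% of strong sites. Their adult-only share was 25.6%, near the background of 24.9%. Of their 109 strong adult sites 2.75% were adult-only, against 4.12% over all genes, and these lay 1 each at Nlrc5, the transactivator of MHC class I genes, H2-Ab1, an MHC class II chain, and Isg15. Nlrc5 had 7 fetal and 11 adult HSC sites in its body and 4 fetal and 8 adult HPC sites. Ifngr1, the interferon gamma receptor, had 3 strong fetal-only sites. Myeloid genes had shares of 29.6% fetal-only and 28.0% adult-only, and 8.60% of their strong adult sites were adult-only, of which 5 of 8 lay at Fcgr3, and 3.70% without it. Id2 had 2 and Irf8, a factor of monocytes and dendritic cells, 1. Lymphoid priming genes had 49.7% fetal-only sites, and 55 of 385 strong sites (14.3%, and 11.7% without Foxp1) were fetal-only, 22 at Foxp1 and 10 at Ikzf2, the Helios factor. Erythroid and megakaryocyte genes had 36.8% fetal-only sites, and 14.1% of strong ones, with 5 at Sox6, a repressor of embryonic globin.

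Imprinted growth regulators had 33.3% of 159 adult sites (26.5 to 41.0) adult-only, against 24.9% over all genes. Their fetal-only share, 49.6% of 246 sites (43.4 to 55.8), had an interval that holds the 44.1% of all genes. Of their 58 strong fetal sites, however, 13 (22.4%) were fetal-only, against 11.9% over all genes, and 18.4% without Grb10. Of their 31 strong adult sites 1 (3.23%) was adult-only, against 4.12% over all genes. Grb10, an adaptor that restrains growth, had 4 strong fetal-only sites, and Dlk1 and Igf2r 2 each. Silent developmental regulators had 29.3% fetal-only sites and 34.9% (31.0 to 39.1) adult-only ones, and at 38 of 54 members the adult-only share was above 24.9%, as it was at 7884 of 16973 coding genes with an adult site. Of their 140 strong adult sites 8 (5.71%) were adult-only, against 4.12% over all genes. These lay 1 each at 8 genes, among them Hoxd13, Hoxd9 and Neurod1. Of their 94 strong fetal sites 10 (10.6%) were fetal-only, against 11.9% over all genes. With the fetal list cut to the adult length the adult-only share of this list was 54.8% against 35.7% for all genes, and with sites merged 21.7% against 19.7%. Hepatocyte markers had 53.2% of 47 adult sites adult-only (39.2 to 66.7) and 36.7% of 49 fetal sites fetal-only. Housekeeping genes had 31.9% and 19.5%, with 3.96% of strong fetal and 0 of 63 strong adult sites age-only.

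**Figure D5:**
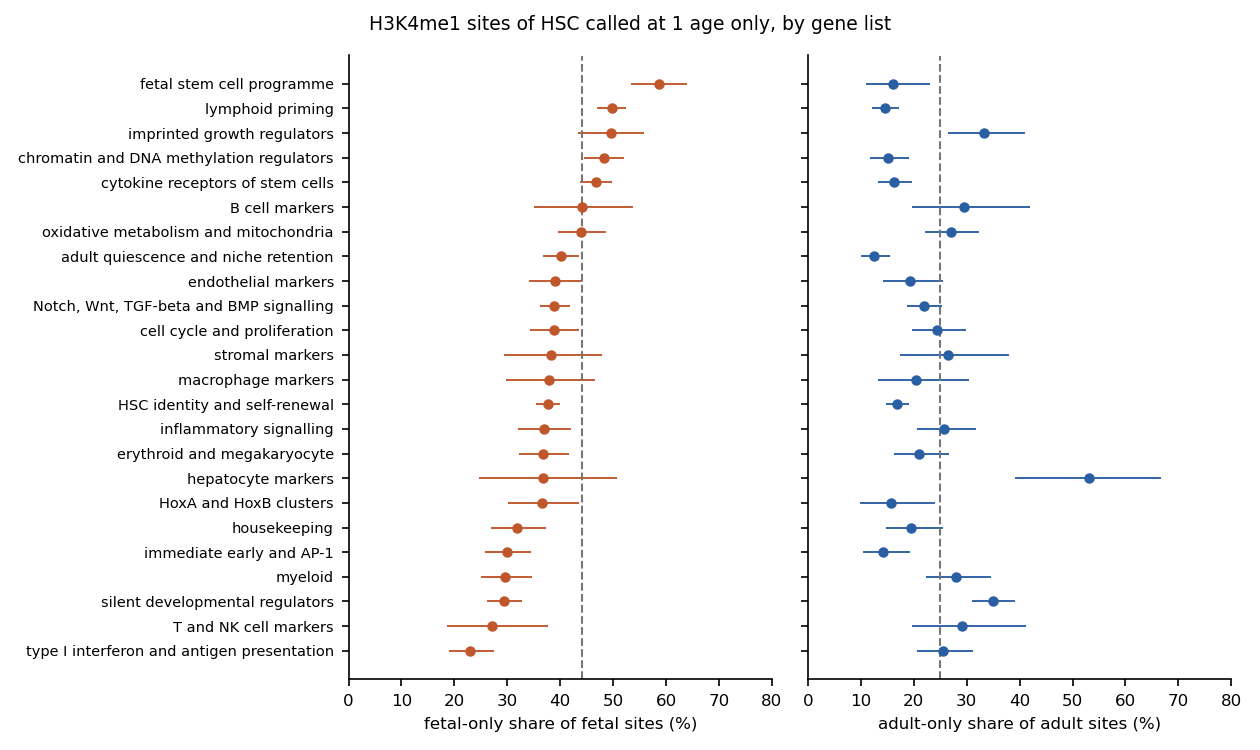
Fetal-only share of fetal sites (left) and adult-only share of adult sites (right) for the sites nearest to the genes of each of 24 lists, with 95% Wilson intervals over sites. Dashed lines are the shares over all coding genes, 44.1% and 24.9%, and the fetal stem cell programme is highest on the left at 58.7%.

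In the remaining lists the fetal-only share lay between 27.2% for T and NK cell markers and 48.3% for chromatin and DNA methylation regulators. Their adult-only shares lay between 14.2% for immediate early and AP-1 genes and 29.5% for B cell markers. Cell cycle genes had 38.8% fetal-only sites and 4 strong ones at Cdk1, the mitotic kinase. Notch, Wnt, TGF-beta and BMP genes had 38.9%. Of their 188 strong adult sites 7 (3.72%) were adult-only, against 4.12% over all genes, and 2.22% without the Notch ligand Dll1. Dll1 held 3 of the 7 and Wnt9a 2. HoxA and HoxB genes had 36.6% fetal-only and 15.7% adult-only sites, with 4 of 7 strong fetal-only sites at Hoxa3. Sites of 1 gene are neighbours and not independent, and the intervals do not allow for this.

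Some strong age-only sites were narrow and stood apart from the rest. The adult-only site with the highest −log10 p at or above the median fold was 144 bp wide, lay 83910 bp from Gramd3 and had a fold of 3.91, and the next was 200 bp wide inside Cntnap5c with a fold of 4.35. Neither overlapped H3K4me1 of adult HPC, though both overlapped adult H3K27ac. In the fetus, a site of 208 bp inside Stxbp5l (fold 9.04) and one of 407 bp with no gene within 100 kb (chr6:25986615-25987021, fold 9.04) had the same fold, and both overlapped fetal HPC H3K27ac. Scara5, a ferritin receptor, and Sulf2, a heparan sulfatase, had adult-only sites with higher folds, 8.55 and 7.04. The Scara5 body held 1 fetal and 20 adult HSC sites, and 1 fetal and 6 adult HPC sites.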

How the data were processed

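Peak lists of 8 groups pooling 24 libraries were analysed, and 3 input libraries had no list of their own. The 2 HSC H3K4me1 lists were compared and the 6 HPC lists were a second readout. Reads were aligned with Novoalign to mm10 and peaks called with MACS2, per the submitters' processing notes; no version of either is given in the sources used here. Each deposited list gives a fold (ratio of ChIP signal over background), a −log10 p and a −log10 q per peak, and a summit offset, recorded as other and not used. A ratio or −log10 value belongs to its own list.

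Overlap, width and distances were computed in Python 3.11.15 with numpy 2.4.6 and pandas 2.3.3, after tests on simulated intervals. Sites were assigned to the nearest of 21887 RefSeq coding genes (GRCm38.p6) within 100 kb; distances are gaps from the site edge. Start windows came from RefSeq, and both gene ends stood in for the starts of 4395 genes without one. Intervals are 95% Wilson intervals for shares and order-statistic intervals for medians. The 24 gene lists hold 543 names, of which 6 matched no gene.

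Members and lists were chosen with earlier results of these data known. Genes were named by rule: per age, the 10 with most strong age-only sites less those of the other age, the 8 with most sites at 1 age and 0 at the other, the 6 strongest sites, up to 3 members per list, and 11 genes known from earlier results. Start windows with their motifs and the microRNA loci were examined after the values were seen. A few genes that the rule names are not reported here.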

Additional observations from a re-analysis of the deposited data

How the results depend on the processing

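Age-only shares depend on the lists' length, the caller's threshold and the overlap rule. The 6 alternatives are given in the order strongest 20000 sites of each list, fetal list cut to the adult length, −log10 q of at least 5, overlap of at least 50% of the site, sites within 1 kb counted as shared, and sites within 1 kb merged first. The fetal-only share was 3.04, 32.3, 41.3, 54.2, 27.2 and 37.8% (main 45.0%) and the adult-only share 2.13, 35.8, 25.7, 38.5, 12.9 and 19.9% (main 24.9%). The median width of fetal-only sites was 1071, 418, 415, 334, 298 and 335 bp (main 303 bp), and of adult-only sites 1652, 391, 552, 453, 385 and 458 bp (main 351 bp). The share of fetal-only sites near a start was 1.65, 2.51, 3.21, 3.47, 1.76 and 2.99%, and 15% within 5 kb (main 2.52%). For adult-only sites it was 24.2, 15.5, 20.1, 17.2, 14.6 and 12.0%, and 28.7% within 5 kb (main 14.6%). Fetal-only sites overlapped fetal HPC H3K4me1 at 96.7, 71.5, 71.4, 62.2, 49.5 and 48.4% (main 57.1%), and adult-only sites adult HPC H3K4me1 at 96.9, 64.3, 75.1, 67.9, 59.6 and 58.4% (main 60.4%). The fetal stem cell programme's fetal-only share was 14.3, 50, 58.7, 72.8, 42.8 and 48.8% (main 58.7%), against 2.92, 31.6, 40.6, 53.3, 26.2 and 36.7% over all genes. The start windows covered in adult HSC only numbered 1845 with 1 kb to either side of the start (main 3741); this alternative was chosen after seeing the data. The cause of these shifts was not tested. Genes with 3 or more sites at 1 age alone numbered 80 fetal and 134 adult in the gene body alone, against 87 and 111.

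No paired analysis was possible because each list pools the libraries of its group, and for the same reason leaving out a library was not run. Without read counts, depth per library is unknown, and absence from a list does not show absence of the mark.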

Other observations

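The X chromosome had a higher share of age-only HSC sites than any autosome at both ages. Of its 3356 fetal sites, 1965 (58.6%) were fetal-only, where the autosomes ranged from 38.3% to 50%. Of its 2269 adult sites, 949 (41.8%) were adult-only, where the autosomes ranged from 20.4% to 28.5%. Few of its sites were strong, 244 fetal and 31 adult, and weak sites were more often age-only in both lists. Among these strong sites 55 (22.5%) were fetal-only and 3 (9.68%) adult-only, against 12.2% and 4.10% over all chromosomes. The part of site strength in the X shares was not tested. The fetal HSC list held 10 sites on the Y chromosome, all fetal-only, and the adult HSC list 0. The sex of the mice is not used here.

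Sfi1, which encodes a centrosomal protein, and the gene nearest to a second cluster, Scaf8, held adult-only sites of high −log10 p and modest fold. At Sfi1 a run of 8 adult-only sites over 15.9 kb had 8 sites in adult HPC and 0 in fetal HPC, with a highest fold of 3.19. Near Scaf8 a run of 5 sites over 5.57 kb had 5 in adult HPC and 1 in fetal HPC. Gata2, a factor of HSC, had 13 fetal and 14 adult sites in the gene and 10 kb around it, of which 0 were fetal-only and 8 adult-only.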
